A study of Homo sapiens with 6 samples.

Results

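CD38 and SARM1, a pair of enzymes that break down the coenzyme NAD, were described by their RNA levels in a prostate cancer cell line with and without knockdown of a circular RNA. They were taken by gene name from the deposited table of FPKM values (fragments scaled to gene length and library depth) and counts per gene, and are 2 of the 99 genes analysed from it. The cells were LNCaP-AI, which the labels call castration-resistant; LNCaP, the parent line, is an androgen-responsive prostate cancer line. The 3 control libraries came from cells with a vector, labelled negative control, and the 3 knockdown libraries from cells with the hairpin sh_0092339 against hsa_circ_0092339; no other allele, agent, time or clone is named in the labels. The labels give 1 hairpin name for all 3 knockdown libraries, so effects of the hairpin on other RNAs cannot be told apart from effects through its target. Whether replicates were separate cultures is not stated, so a p-value here reflects the scatter among 6 samples and that scatter may be technical.

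NAD carries electrons in metabolism and is also a substrate that certain enzymes cleave, releasing nicotinamide. CD38 is a membrane glycoprotein that cleaves NAD, mostly outside the cell, and makes cyclic ADP-ribose, a messenger that releases calcium. It is best known from plasma cells and lymphocytes, and in the human prostate it is found on luminal epithelial cells. SARM1 is an intracellular protein whose TIR domain cleaves NAD when the enzyme is released from self-inhibition. It is best known in neurons, where its activity drives the degeneration of injured axons.

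CD38 was close to absent in these cells. The deposited counts were 12, 8 and 4 in the 3 control libraries and 0 in each of the 3 knockdown libraries, among 53127020 to 80559726 mapped fragments per library. SARM1 was at 1.84 to 2.95 FPKM in 5 libraries, with 1245 to 1742 counts, and at 0.368 FPKM in knockdown 3, with 304 counts. SARM1 did not pass the test of knockdown against control, and CD38 was too low to enter it.

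Where the genes lie and what surrounds them bears on how their reads can be counted. In the table CD38 (ENSG00000004468) lies at 15778275 to 15853232 on the plus strand of chromosome 4 and SARM1 (ENSG00000004139) at 28364356 to 28404049 on the plus strand of chromosome 17. The submitters' processing notes name the build hg18, but the coordinates are those of GRCh38, since 98 of the 99 genes lie where GENCODE 29 places them on that build. Both are annotated there as protein-coding genes, CD38 with 5 transcripts and SARM1 with 8. No other annotated gene overlaps CD38. SARM1 overlaps 7 other genes, and 45.6% of its 11137 exonic bases are also exonic in another gene, 41.2% on the opposite strand.

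Most of that overlap is with SLC46A1, the folate transporter gene that runs toward SARM1 from the other strand and shares 4421 exonic bases with it. The longest coding SARM1 transcript has 10309 bases, of which 75.3% are 3′ UTR, and 52.0% of the 3′ UTR lies within SLC46A1 exons. No source used here says whether reads were assigned by strand, so reads from the shared bases cannot be assigned to either gene with certainty. SLC46A1 itself was not analysed here.

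**Figure D1:**
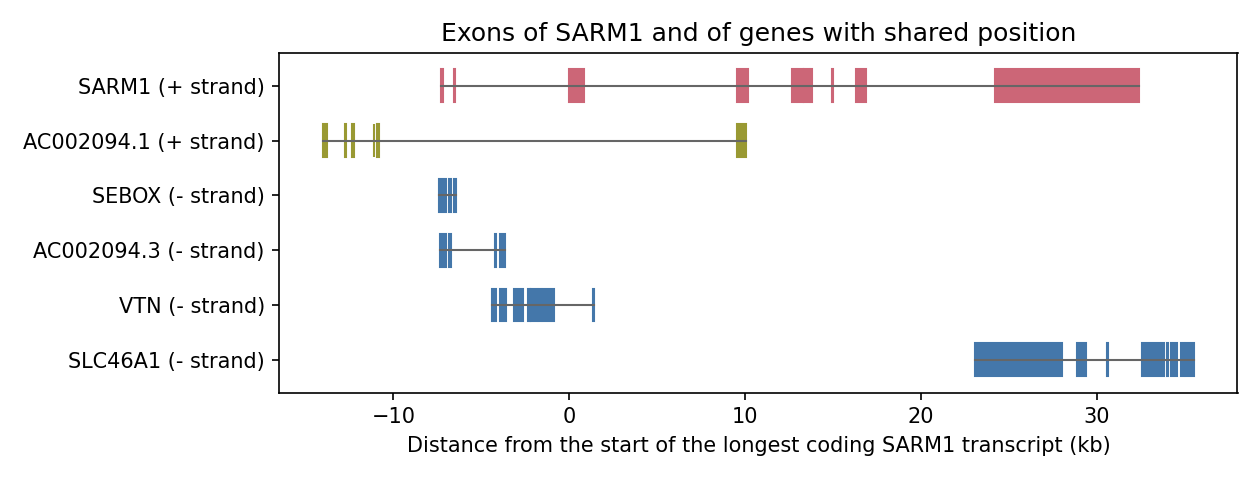
Exons (boxes) of SARM1 and of 5 overlapping genes in GENCODE 29, by distance in kb from the start of the longest coding SARM1 transcript; red is SARM1, olive another gene of the plus strand and blue genes of the minus strand. The long last SARM1 exon, which holds the 3′ UTR of 7766 bases, coincides in part with SLC46A1 exons, and VTN lies around the SARM1 start.

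The stretches just before the 2 start sites are shown because the genes differ so much in level. Each window is the 197 bases that end 54 bases before the RefSeq start of the gene (GRCh38.p14, plus strand), chr4:15778078-15778274 for CD38 and chr17:28371444-28371640 for SARM1, and CpG dinucleotides are in capitals.
CD38: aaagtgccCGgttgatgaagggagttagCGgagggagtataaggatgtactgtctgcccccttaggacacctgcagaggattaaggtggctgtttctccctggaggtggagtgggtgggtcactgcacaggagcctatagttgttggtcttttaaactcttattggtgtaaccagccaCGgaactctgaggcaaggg
SARM1: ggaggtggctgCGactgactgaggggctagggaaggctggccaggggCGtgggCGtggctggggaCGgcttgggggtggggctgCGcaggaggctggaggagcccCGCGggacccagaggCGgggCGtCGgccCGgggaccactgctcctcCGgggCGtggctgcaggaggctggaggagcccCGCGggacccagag
The CD38 window has 3 CpG and a GC content of 52.3%, and the SARM1 window has 15 CpG and a GC content of 76.6%. The median over the 35115 RefSeq promoters of the same window length was 7 CpG and 57.4% GC; 35.2% had as few CpG as CD38 and 31.7% as many as SARM1. The letters CACGTG, the E-box form bound by MYC, which read the same on both strands, occur in neither window and in 4.40% of all of them. These are descriptions of sequence, and their part in the RNA levels was not tested.

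CD38 is the plasma membrane member of the pair. Its FPKM was 0.0283 in control 1, 0.0187 in control 2 and 0.00795 in control 3, and the table lists 0.0001 FPKM, its value for a count of 0, in knockdown 1, knockdown 2 and knockdown 3. All control libraries were above all knockdown libraries, so the groups did not overlap; 43.8% of the 96 genes with any count had groups apart in 1 direction or the other. By mean FPKM over all 6 libraries CD38 ranked 90 of 99 genes, between SLC4A1, the anion exchanger of red cells, and PON1, the paraoxonase secreted by liver. Both neighbours were at 0 in several libraries, so the order among these 3 genes is not beyond their spread.

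The CD38 counts of 4, 8 and 12 should be read with the grain of the table. Of the 594 values of the 99 analysed genes, 65 are 0 and 0 lie between 1 and 3. The smallest value above 0 is 4. Among the 36 values from 1 to 15, 24 are multiples of 4, against 25.6% of the 493 values from 16 upward. In the other deposited tables values of 1 to 3 do occur. What sets this grain was not tested; in units of 4, the 24 control counts of CD38 come to 6. Because the analysed rows hold no value of 1 to 3, a listed 0 may stand for fewer than 4 counts. Thus no fold and no upper limit are given for the knockdown. Taken as single counts, the 12 counts of control 1 have an exact 95% Poisson interval of 6.20 to 21.0 and the 4 counts of control 3 an interval of 1.09 to 10.2; these overlap and cover counting error only.

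Other scarce genes bear on how the zeros read. Of the 99 genes analysed, the control libraries each had 90 with a count above 0. The knockdown libraries had 85, 88 and 86, although 2 of the 3 knockdown libraries were the deepest. Counting CD38, 7 genes had a count in at least 1 control library and in no knockdown library, and 1 gene had the reverse. CD38 was the 1 gene with counts in all 3 control libraries and none in any knockdown library. Among the 20 genes with a mean count under 60 and any count, 15% had all control libraries above all knockdown libraries in CPM (counts per 1000000 mapped fragments), and among all 96 genes with any count 20.8% did. These low counts do not settle whether CD38 RNA was lower in the knockdown. If it was, fewer CD38-positive cells and less CD38 RNA per cell cannot be told apart in bulk RNA.

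CD38 was too low for the test, which took the 84 genes that passed edgeR's filter on low counts. Its CPM was 0.134 ± 0.0743 in the controls (mean ± SD, n = 3) and 0 in the knockdown (n = 3), and an exact two-sided permutation test gave p = 0.1, the smallest that 3 against 3 libraries allow. When the filter was dropped, a choice made after the values were seen, edgeR's quasi-likelihood test gave CD38 an adjusted p of 0.0805, in a fit that called 22.9% of 96 genes. Without the filter DESeq2 gave an adjusted p of 0.0270, in a fit that called 33.3% of the genes, and limma-voom gave 0.0252, in a fit that called 19.8%. By limma on log2(FPKM + 0.1) CD38 was not called, with an adjusted p of 0.0992, where 21.9% of the genes were. With edgeR the adjusted p ran from 0.106 to 0.217 when any library was left out. The call for CD38 therefore depended on the tool. The tests on counts also take each count as a single fragment and each 0 as exact, which the grain described above puts in doubt. Identical zeros also give no measure of spread within the knockdown. These p-values thus do not decide whether CD38 RNA was lower.

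**Figure D2:**
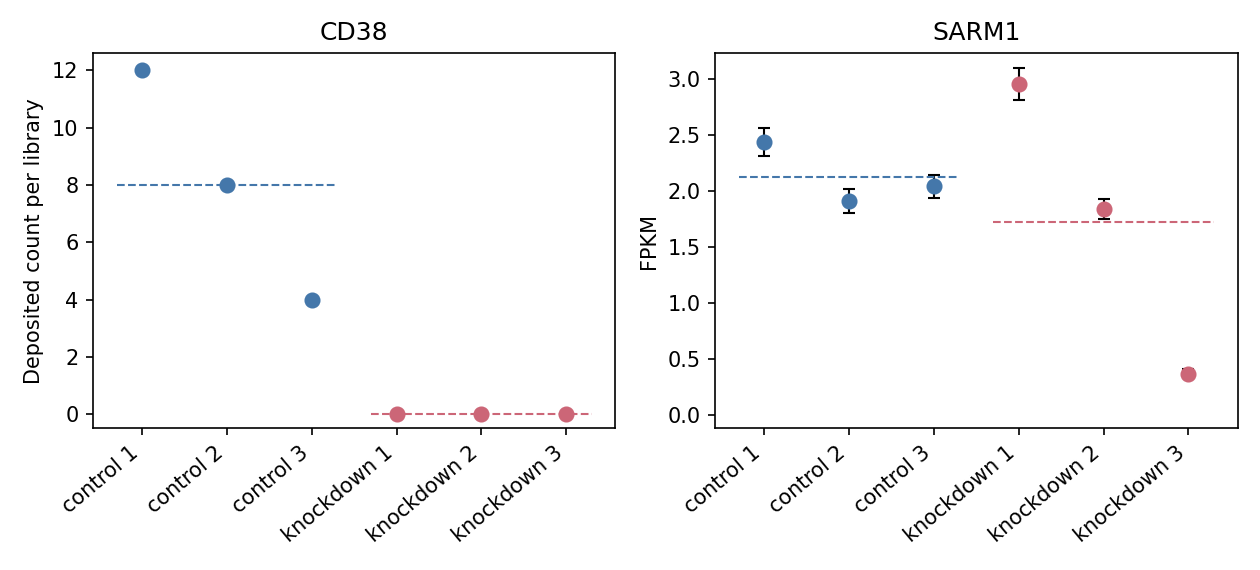
Left, deposited CD38 counts; right, SARM1 FPKM with 95% Poisson counting intervals; each point is a library and each dashed line the mean of a group. CD38 has 12, 8 and 4 counts in the controls and 0 in every knockdown library, and SARM1 lies between 1.84 and 2.95 FPKM except in knockdown 3, at 0.368.

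SARM1 is the intracellular member of the pair. Its FPKM was 2.43, 1.91 and 2.04 in control 1, control 2 and control 3. In the knockdown libraries it was 2.95, 1.84 and 0.368 in the same order. Knockdown 1 was the highest of the 6 libraries and knockdown 3 the lowest, and the control libraries lay between them and above knockdown 2, so the groups overlapped. In the control libraries the FPKM of SARM1 was 86.0, 102 and 256 times that of CD38. These ratios rest on the 12, 8 and 4 CD38 counts. Taken as single counts, their 95% limits alone allow 49.2 to 166 times in control 1 and 100.2 to 941 times in control 3. Limits for counts in units of 4 were not computed and would be wider. In the knockdown no such ratio exists, because CD38 is listed at 0, and the planned test of the ratio was not made.

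By mean FPKM over all 6 libraries SARM1 ranked 66 of 99 genes, at 1.92. SCYL3, a pseudokinase, was next above it, at 1.96, and MTMR7, a myotubularin-related lipid phosphatase, was next below, at 1.60. In the controls alone SARM1 was above SCYL3, at 2.13 ± 0.273 against 2.10 ± 0.131 FPKM (mean ± SD, n = 3 each). MTMR7 was at 1.79 ± 0.287 FPKM there. These neighbouring levels did not differ beyond their spread.

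Over the groups SARM1 averaged 2.13 ± 0.273 FPKM in the controls and 1.72 ± 1.29 FPKM with the hairpin (mean ± SD, n = 3 each). Its log2 fold change by edgeR was -0.31 ± 0.641 (SE), with a 95% interval from -1.86 to 1.23 and an adjusted p of 0.751. An exact two-sided permutation test of the FPKM gave p = 0.7. The interval holds changes of more than 2-fold in either direction, so the data neither show a change nor bound it closely. In the same test 25% of 84 genes were called, 13 that rose and 8 that fell; the number of calls was 9 without knockdown 2 and 13 without control 2.

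The direction of SARM1 rested on knockdown 3. Without that library the mean of the knockdown was 2.39 ± 0.787 FPKM (n = 2), and the log2 fold change was 0.18 ± 0.224 (SE), with an edgeR adjusted p of 0.601. Without any other library it stayed negative, from -0.94 without knockdown 1 to -0.18 without control 1, and SARM1 was not called under any of the 16 alternatives run.

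**Figure D3:**
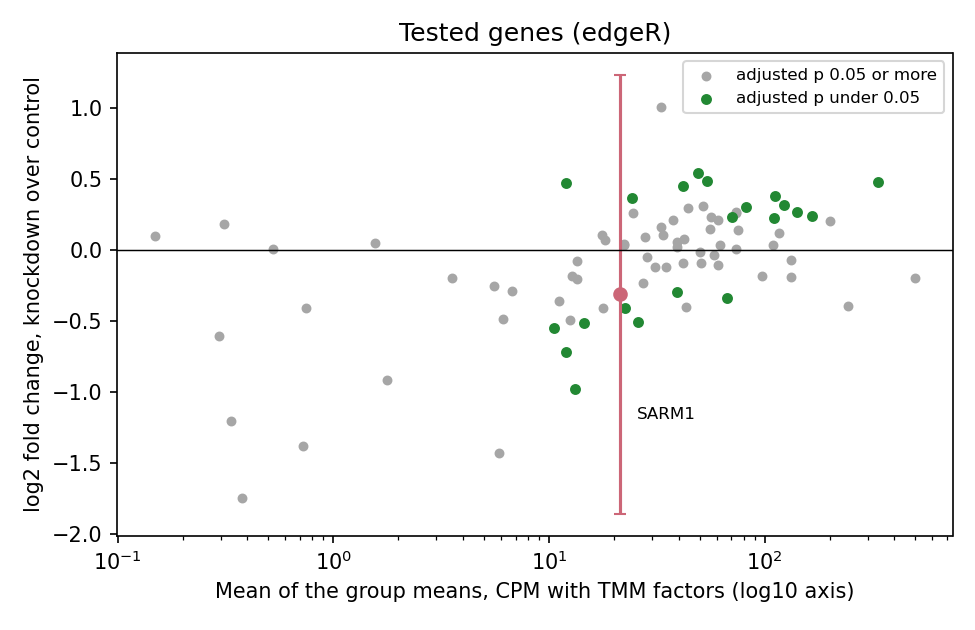
Log2 fold change (knockdown over control) against mean CPM for the 84 tested genes, with genes of an adjusted p under 0.05 in green. SARM1 is in red with its 95% interval, from -1.86 to 1.23, which spans the fold changes of the other 83 genes.

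The spread of SARM1 was wide within the knockdown group. Its coefficient of variation was 75.4% in the knockdown libraries, the highest of 76 genes with a mean count of at least 50, whose median was 7.18%. In the controls it was 12.8%, rank 17 of 76, with a median of 7.42%. Spreads of this size also occurred in the controls, where CYP26B1 had 108% and SLC7A2 62.6%. Counting error is far smaller than this, since the 304 counts of knockdown 3 have an exact 95% Poisson interval of 271 to 340, or 0.327 to 0.411 FPKM.

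Knockdown 3 was not low as a library. It held 73620788 mapped fragments, and the median gene had 0.988 times the mean FPKM of the other knockdown libraries. SARM1 had 0.154 times that mean, the lowest of the 76 genes. CASP10, an initiator caspase, followed at 0.389 and STPG1 at 0.488, and these were the 3 genes under 0.5 there. A gene that stood apart in 1 library occurred among the controls too. CYP26B1, a retinoic acid hydroxylase, had 0.488, 3.83 and 0.810 FPKM in control 1, control 2 and control 3, so control 2 was the high one. SLC7A2, a cationic amino acid transporter, had 4.40, 0.954 and 2.93 FPKM in the same order, a spread not due to 1 library. Its control 1 had 2.26 times and its control 2 had 0.260 times the mean of the other controls.

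**Figure D4:**
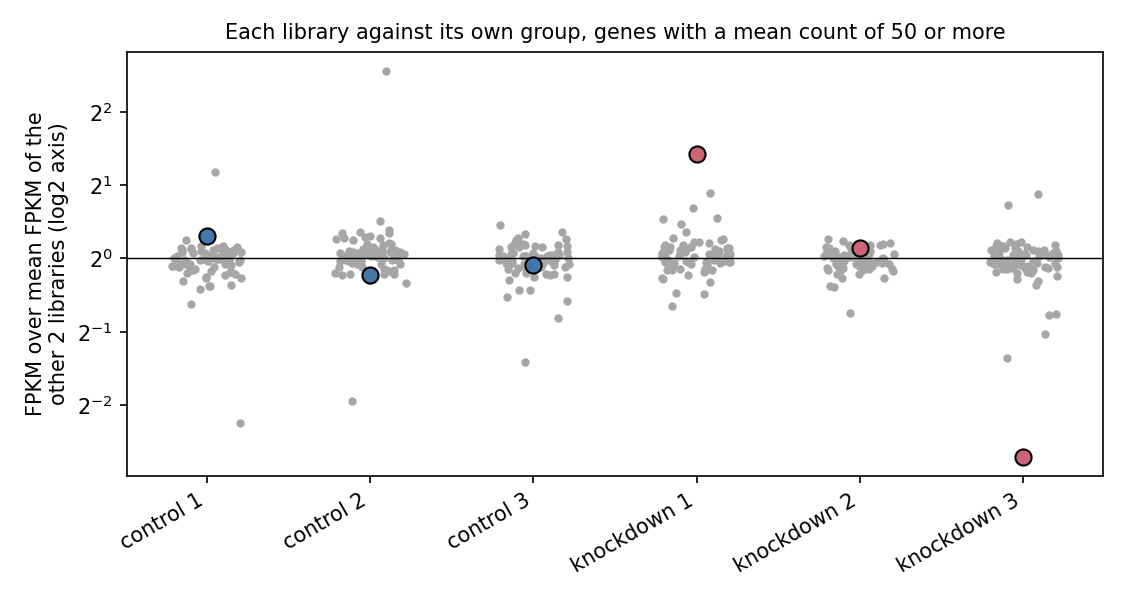
FPKM of each gene in a library divided by its mean in the other 2 libraries of the group (log2 axis), for 76 genes with a mean count of at least 50; the large outlined points are SARM1. In knockdown 3 SARM1 is the lowest point, at 0.154, while the median gene is at 0.988. In knockdown 1 SARM1 is the highest point, at 2.68, and its FPKM of 2.95 was itself the highest of the 6 libraries. Knockdown 3 is part of the divisor there and also in knockdown 2, where SARM1 is at 1.11.

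The genes whose profile over the 6 libraries was most like that of SARM1 were CASP10, STPG1 and CFTR, a chloride channel. Likeness was the root-mean-square difference of log2 CPM after each gene was centred on its own mean; it was 0.521, 0.620 and 0.661, against a median of 1.005 over the 83 genes compared and 0.987 for a profile with no change at all. CASP10 (chromosome 2) had 0.809, 1.16 and 0.830 FPKM in the controls and 0.957, 0.708 and 0.324 in the knockdown libraries. STPG1 (chromosome 1) had 1.95, 2.79 and 2.42 FPKM in the controls and 2.40, 1.93 and 1.06 in the knockdown libraries. Both were lowest in knockdown 3, which follows from their choice by likeness. CFTR rests on 11 to 25 counts per library. By edgeR none of the 3 was called, with adjusted p of 0.353, 0.336 and 0.348. For CD38 no likeness was computed, since 3 of its 6 values are 0.

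POLDIP2, a protein that binds DNA polymerase delta, is the 1 gene of the 99 analysed that lies within 100 kb of a member. It lies on the minus strand, its start is 6829 bases from the near end of SARM1, and the genes run apart. It rose from 38.2 ± 1.36 to 44.8 ± 1.41 FPKM (mean ± SD, n = 3 each; edgeR log2 fold change 0.23 ± 0.0459 SE, adjusted p = 0.0124). In knockdown 3, where SARM1 was lowest, POLDIP2 was at 46.4 FPKM, its highest value.

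Of the 23 NAD-consuming enzymes listed for this comparison, CD38 and SARM1 were the 2 analysed. The pair is described without its pathway. None of the 22 NAD synthesis genes, the 11 of the SARM1 axon pathway or the 9 of calcium channels was among the analysed rows. The same holds for the markers of prostate luminal cells, B and plasma cells, other leukocytes, neurons and stroma, and for the targeted circular RNA, so neither the cell type nor the knockdown was checked here. No transcript of CD38 or SARM1 was among the analysed rows of the isoform and transcript tables, and thus the levels cannot be split by isoform.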

How the data were processed

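Per the submitters' processing notes, cutadapt, HISAT2 and StringTie were used, without versions; RNA was extracted with Trizol per the labels' protocols. Of the deposited tables, 99 genes and 99 isoforms were analysed with FPKM and whole-number counts in adjacent columns, per the file headers, and 2 further tables hold counts. The length of each isoform, a value of another kind that the authors deposited, served with isoform count and FPKM to recover the mapped fragments per library, 53127020 to 80559726, as the median over isoforms with at least 1000 counts. These were the library sizes.

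Counts were tested with edgeR 4.0.16 (R 4.3.3; TMM factors, filterByExpr by group, quasi-likelihood, Benjamini-Hochberg over all tested genes, threshold 0.05). The SE is the log2 fold change over the root of the F statistic. DESeq2 1.42.0, limma 3.58.1 on log2(FPKM + 1) or log2(FPKM + 0.1), limma-voom, other scalings and filters, the replicate number as a block and the omission of any library were alternatives. Pairs of replicates differed by a chi-square of 24.0 to 60.3 per degree of freedom, so all were kept as separate samples. Named genes were the pair, the 3 most like profiles, analysed genes within 100 kb, neighbours in level and listed pathway genes. CYP26B1 and SLC7A2 were added once their values were known. The members, lists and rules were chosen with earlier results of these data known. A search of 3′ UTR sequence is not reported here.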

Additional observations from a re-analysis of the deposited data

How the results depend on the processing

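For SARM1 the log2 fold change was negative under 15 of 16 alternatives and positive, at 0.18, without knockdown 3; leaving out each library in turn gave -0.94 to 0.18. On all 6 libraries it ran from -0.79 with limma-voom to -0.11 by limma on log2(FPKM + 1) after quantile normalization. That range in part reflects the value added before the log, which shrinks the log2 fold change of a gene at this level. Limma gave -0.66 on log2(FPKM + 0.1) and -0.33 on log2(FPKM + 1) without quantile normalization. The adjusted p was at least 0.328 throughout. The difference of CD38 in CPM, knockdown minus control, ran from -0.17 to -0.096 over the libraries left out and moved by less than 1 SD of the controls under every scaling. With CD38 listed at 0 in every knockdown library, this difference is only the control mean with its sign reversed. Scaling could hardly move it, so its steadiness is no evidence for a change. The number of analysed genes called was 21. It was 9 to 22 when a library was left out and 16 to 27 under the other alternatives. No pairing of libraries by replicate number was seen, but with 3 libraries per group this check is weak and cannot exclude it. The deviations of same-numbered libraries correlated at -0.193, 0.117 and -0.181 over 84 genes, and 2 of 6 libraries correlated best with their own number. With the replicate block SARM1 had a log2 fold change of -0.68 (edgeR adjusted p = 0.458), 19 genes were called, the CD38 difference was -0.134 CPM, and CD38 without the low-count filter had an adjusted p of 0.294. The ratio of SARM1 to CD38 was not tested under any setting, because CD38 is listed at 0 in every knockdown library, and alternatives that keep the filter on low values gave no test of CD38. CD38 rests on 24 counts in all, SARM1 on at least 304 per library.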
